A study of Mus musculus with 10 samples.

Results

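The 6 genes described here encode proteins of the bone matrix and of the osteoblast surface: Sparc, Postn and Omd are secreted, and Cdh11, Panx3 and Alpl sit in the membrane. They were taken as every row of the deposited peak lists whose nearest-gene name is one of the 6, among 12770 genes named in those lists. This gave 75 rows, which overlap to form 24 regions of the genome, and 5 of the 6 genes had at least 1 row. Alpl had none.

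ATAC-seq, which maps open DNA by where a transposase can insert sequencing adapters, was run on MC3T3-E1, a clonal preosteoblast line from mouse calvaria. The 4 groups of 2 libraries were cells given neither factor (untreated), TNFa at 10 ng/ml, BMP4 at 10 ng/ml, or both. All cells were first held in medium with reduced serum for 30 min. The treatment protocol adds TNFa 30 min ahead of 3 h of BMP4, but the label of the TNFa libraries reads 3 h, which leaves the length of that exposure uncertain. The titles of the TNFa-only libraries carry the word p65, which no label explains. A further 2 libraries of sonicated DNA were the authors' background. Replicates are not said to come from separate cultures, so the spread behind each p-value may be technical. In a bulk assay, fewer cells with a window open and fewer cuts per cell cannot be told apart.

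TNFa is an inflammatory cytokine that acts through NF-kB (whose p65 subunit enters the nucleus) and AP-1, and it is known to hold back osteoblast differentiation. BMP4 is a bone morphogenetic protein that acts through receptor-activated SMAD proteins and drives that differentiation. Sparc (osteonectin) binds collagen and calcium and is among the most abundant non-collagenous proteins of bone. Postn (periostin) is a matricellular protein of periosteum and other collagen-rich tissue, and Omd (osteomodulin, also called osteoadherin) is a small leucine-rich proteoglycan of mineralised matrix. Cdh11 (OB-cadherin) joins mesenchymal cells to each other. Panx3 (pannexin 3) forms channels for ATP and calcium in osteoblasts and hypertrophic chondrocytes. Alpl, tissue-nonspecific alkaline phosphatase, breaks down pyrophosphate, an inhibitor of mineral growth.

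In these data the Panx3 promoter window was lower in all 4 libraries with TNFa than in all 4 without it, with a log2 difference of -1.89 ± 0.42 (SE). A further Panx3 window upstream of it was called only in the lists of the groups with TNFa. The last window downstream of Postn was higher in all 4 libraries with BMP4 than in the other 4, by 0.79 ± 0.34. Neither difference passed an adjusted p of 0.05 over all windows tested. Sparc carried the highest windows of the 6 genes in every group, and Alpl carried no window in any.

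Sequences just upstream of the start sites show how unlike these promoters are. RefSeq (GRCm38.p6, whose chromosome coordinates are those of mm10) gave promoters for 4 of the 6 genes, and those of Cdh11 and Panx3 are not printed. The 250 bases before the start are given 5′ to 3′ on the gene's strand for 3 of them: Sparc, where a window lay at the start, Postn, where the nearest window lay at least 53014 bp from the gene, and Alpl, with no window at all. Sparc is chr11:55420081-55420330 (minus strand), Postn chr3:54360857-54361106 (plus strand, the start from which the deposited distances count) and Alpl chr4:137796385-137796634 (minus strand). Capitals mark the matches to the motifs searched.
Sparc: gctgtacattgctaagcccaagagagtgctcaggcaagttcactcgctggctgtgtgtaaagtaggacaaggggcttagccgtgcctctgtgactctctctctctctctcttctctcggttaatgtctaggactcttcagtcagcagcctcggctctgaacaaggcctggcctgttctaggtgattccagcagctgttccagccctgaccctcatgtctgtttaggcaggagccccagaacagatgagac
Postn: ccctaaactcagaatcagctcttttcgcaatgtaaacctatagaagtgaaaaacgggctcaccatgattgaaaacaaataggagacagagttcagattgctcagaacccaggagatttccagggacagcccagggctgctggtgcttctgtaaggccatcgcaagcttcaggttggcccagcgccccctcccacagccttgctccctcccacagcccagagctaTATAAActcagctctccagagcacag
Alpl: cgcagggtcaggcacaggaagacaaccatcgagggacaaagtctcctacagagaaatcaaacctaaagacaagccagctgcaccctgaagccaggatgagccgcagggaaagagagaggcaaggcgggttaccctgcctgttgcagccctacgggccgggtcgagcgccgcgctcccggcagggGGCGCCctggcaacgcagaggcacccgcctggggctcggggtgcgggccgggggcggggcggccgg

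The motifs were searched on both strands, and their background is the share of the 32851 promoters of the same length in the RefSeq table that hold them. The RUNX core, written ACCACA, was in 14.0% of promoters. A TATA box (TATAAA) was in 12.4%, and a CCAAT box, which is its own name, in 33.8%. The AP-1 site TGANTCA was in 6.75%, the BMP SMAD GC box GGCGCC in 9.59%, and the consensus NF-kB site in 3.90%. Postn had the TATA box at -26 to -21 from its start, and Alpl had the GC box at -66 to -61. RefSeq gives Postn and Alpl a second start each, not printed: that of Alpl (chr4:137766476-137766725) held a TATA box on the opposite strand at -192 to -187, and that of Postn (chr3:54359017-54359266) held none of the motifs. The Sparc sequence and that of Omd (chr13:49582212-49582461) held none of these letters. The printed Alpl sequence had 68.4% GC and 20 CpG and that of its second start 56.0% and 4, against a median of 52.4% and 6 CpG over all promoters. Sparc had 54.0% GC and 4 CpG, Postn 52.0% and 4 (40.4% and 3 at its other start), and Omd 38.4% and 1. These matches describe the letters in the window and say nothing of what is bound there.

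The deposited lists hold windows of 125 bp. There were 26230 in the untreated list and 23288 in that of TNFa, and 24525 and 23745 in those of BMP4 and of the 2 factors together. The 6 genes had 17, 17, 21 and 20 of them. Sparc had 9 in each list. Postn had 2, 2, 5 and 4, Omd had 3, 3, 4 and 4, Cdh11 had 2, 1, 2 and 1, and Panx3 had 1, 2, 1 and 2, in that order of groups. A list was called on pooled replicates, so these numbers have no replicate error. With only rows at an adjusted p of at most 0.01 over background in the authors' deposited table, the totals were 13, 15, 16 and 16.

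Joined across lists by at least 63 bp of overlap, the 75 rows made 24 regions, 14 of them (58.3%) in all 4 lists. Of all 35534 regions of the series, 42.5% were in all 4. The remaining 10 were in fewer lists, and they fell into 5 patterns. There were 3 regions in the lists with BMP4 only (a pattern of 2.57% of all regions), 2 in the BMP4 list alone (5.83%), and 2 in the lists with TNFa only (4.18%). A further 2 were in the untreated and BMP4 lists (7.36%) and 1 in every list but BMP4 (4.45%). Several of these lie beside a window that all lists hold. When windows within 500 bp were joined, 18 regions remained and 14 of them were in all 4 lists. In 1 of these, past the end of Sparc, the lists held different windows and no single window was in all 4. The share of all regions of the series was not computed for this joining.

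**Figure D1:**
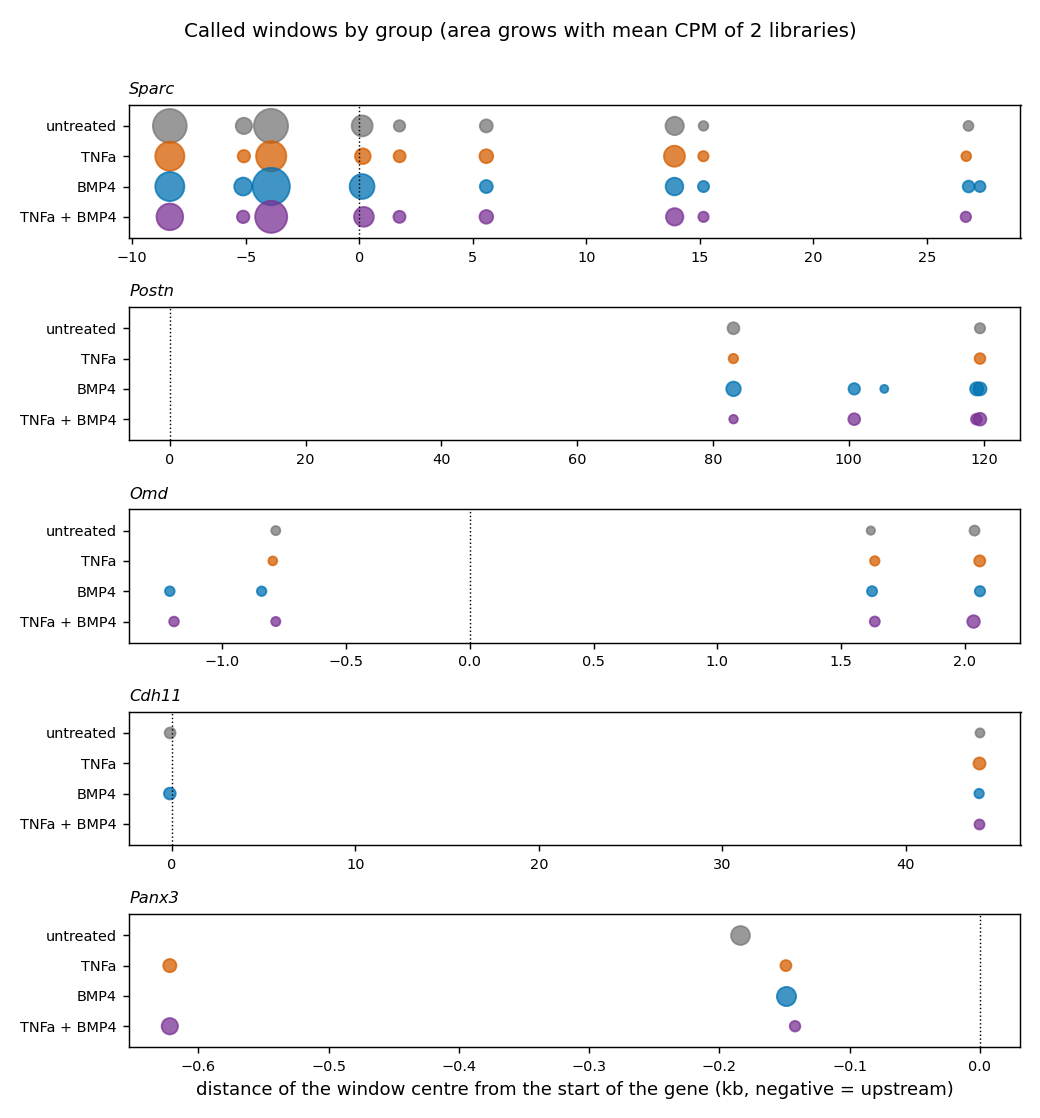
Position of every called window of the 5 genes that had one, as distance of its centre from the gene's start in kb (x axis, negative is upstream), with a row for each group. Circle area grows with the mean CPM of 2 libraries. Sparc windows surround its start, whereas the Postn windows lie from +83024 to +119336 bp.

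Windows called in all 4 groups can be compared library by library. Levels are in CPM (counts-per-million): a window's recovered tags as a share of the library's tags in matched windows, scaled between libraries. All windows have the same length, so levels can be set side by side between genes. The test covered 14451 windows, of which 13 belong to these genes: 6 of Sparc, 2 of Postn, 3 of Omd, 1 of Cdh11 and 1 of Panx3. The remaining window in all 4 lists, at the Sparc start, shifted by up to 81 bp between lists and is tested only under a looser match. Total tags ran from 16486612 (TNFa replicate 1) to 30051723 (untreated replicate 1) per library. Replicates correlated at 0.398 (BMP4) to 0.751 (both) across windows. Untreated replicate 2 and BMP4 replicate 2 stood apart from the other 6 libraries and correlated with each other at 0.954. On the first principal component (the main axis of difference between libraries, 63.3% of variance) they lay at 94.3 and 95.9. TNFa replicate 2 came next at 41.8, and replicate 2 was above replicate 1 in all 4 groups. Untreated replicate 2 and BMP4 replicate 2 were the 2 highest libraries in 5 of the 13 windows, and in 24.5% of all 14451.

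No window of any gene passed an adjusted p of 0.05 in any of the 8 comparisons (limma with a mean-variance trend, two-sided, Benjamini-Hochberg). TNFa averaged over both BMP4 states gave 628 windows at an unadjusted p under 0.05 (4.35%) with the trend and 629 with voom weights. BMP4 averaged over both TNFa states gave 155 (1.07%) and 149. TNFa against untreated gave 147 (1.02%) and 143, BMP4 against untreated 26 (0.18%) and 28, and both factors against untreated 360 (2.49%) and 362. Both against TNFa gave 37 (0.256%) and 33, both against BMP4 233 (1.61%) and 235, and the interaction 0 with either. Of the 13 windows, 1 was at an unadjusted p under 0.05 in TNFa against untreated, in both against untreated and in both against BMP4, each time that of Panx3. The same window was the only 1 for TNFa over both BMP4 states, and Postn +119336 the only 1 for BMP4 over both TNFa states. The comparisons against a common group share its libraries and are given side by side only.

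Separation of the 2 groups' libraries without overlap was counted beside the same share of all 14451 windows. In TNFa against untreated it held upward for 1 of the 13 windows (8.49% of all) and downward for 2 (11% of all). In BMP4 against untreated it held for 2 upward (7.92%) and 0 downward (9.11%), and in both factors against untreated for 2 upward (15.6%) and 2 downward (17.6%). In both against TNFa it held for 2 upward (8.3%) and 0 downward (9.06%), and in both against BMP4 for 1 upward (11.9%) and 3 downward (12.9%). With 4 libraries against 4, TNFa separated 1 window upward (1.81%) and 1 downward (2.66%), and BMP4 1 upward (0.754%) and 0 downward (0.851%).

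Median differences of the 13 windows were -0.05 for TNFa and 0.07 for BMP4, each averaged over the other factor, and those of all windows were -0.01 and -0.01. For TNFa 6 of the 13 were above 0, and for BMP4 7 of the 13, against 49.5% and 49.5% of all windows. The difference was smaller than its SE in 7 of the 13 windows for TNFa and in 12 for BMP4.

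**Figure D2:**
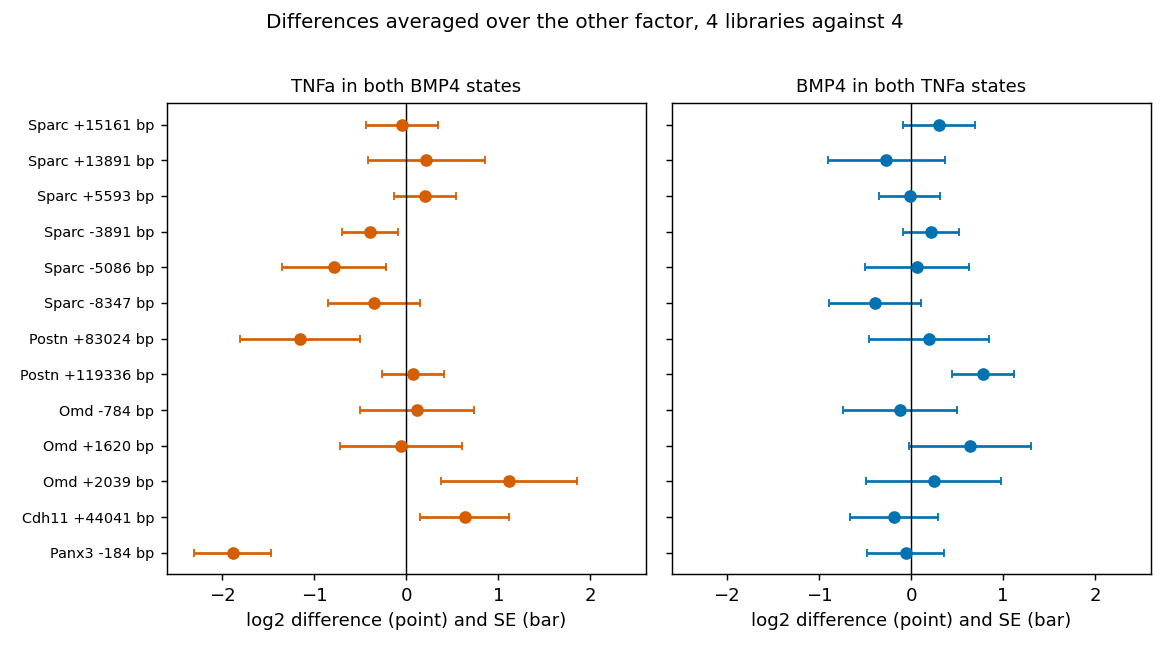
Log2 difference (points) with its SE (bars) for the 13 tested windows, TNFa averaged over both BMP4 states on the left and BMP4 averaged over both TNFa states on the right, 4 libraries against 4. Panx3 -184 lies at -1.89 for TNFa, and Postn +119336 at 0.79 for BMP4.

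Among the matrix genes, Sparc had the highest windows. The window at -3891 bp (chr11:55423900-55424033 over the 4 lists, intergenic) ranked in the top 0.57% to 2.88% of each list by tags. Its level was 246.7 and 331.3 CPM in the untreated libraries, 244.3 and 205.2 under TNFa, 285.5 and 410.0 under BMP4, and 249.1 and 257.0 under the 2 combined. Both TNFa-only libraries were below the other 6, and BMP4 replicate 2 was the highest. Separation of TNFa downward from untreated cells alone held in 11% of all windows. TNFa over both BMP4 states differed by -0.39 ± 0.30 (unadjusted p 0.23) and BMP4 over both TNFa states by 0.22 ± 0.30 (p 0.494).

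The most distal upstream window, at -8347 bp (chr11:55428364-55428489), was nearly as high. It measured 223.7 and 342.3 CPM in untreated cells, 114.5 and 300.0 under TNFa, 105.0 and 309.4 under BMP4, and 121.1 and 222.9 under the 2 combined. Replicate 2 exceeded replicate 1 in all 4 groups, and the groups given TNFa alone or BMP4 alone each spanned most of the range of the 8 libraries. Both untreated libraries lay above both libraries given the 2 factors, as in 17.6% of all windows, but the difference of -0.74 ± 0.70 had an unadjusted p of 0.32. Without replicate 1 of the combined group it was -0.30, without its replicate 2 -1.15, and without untreated replicate 2 -0.44.

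Between these lies a window at -5086 bp (chr11:55425103-55425258) that was low in most libraries. It measured 29.0 and 87.2 CPM in untreated cells, 30.8 and 28.8 under TNFa, 24.8 and 120.3 under BMP4, and 29.2 and 30.7 under the 2 combined. Untreated replicate 2 and BMP4 replicate 2 stood above the rest, which lay between 24.8 and 30.8 CPM. The difference for TNFa was -0.79 ± 0.56 (p 0.199) with all libraries and 0.15 without that pair. For the BMP4 list the recovered tags of this window and of that at the start did not all come out whole.

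At the start of Sparc, within its first exon (+125 bp, chr11:55419816-55420021), levels were 71.7 and 134.1 CPM in untreated cells and 51.3 and 55.2 under TNFa. They were 64.3 and 231.7 under BMP4 and 82.1 and 98.9 under the 2 combined. The TNFa-only libraries were the lowest of the 8. Among the windows tested, separation of TNFa downward from untreated cells alone held in 11%. With windows matched by at least 1 bp, TNFa against untreated differed by -0.83 ± 0.67 (p 0.251), and TNFa over both BMP4 states by -0.62 ± 0.48 (p 0.227). The authors' deposited table gave this window a log2 fold over background of 3.35 untreated, 2.28 under TNFa, 4.10 under BMP4 and 3.14 under the 2 combined.

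Inside the gene, the window in intron 1 at +5593 bp was the most even of the 13. It measured 29.9 and 36.6 CPM in untreated cells, 41.0 and 37.2 under TNFa, 30.5 and 36.3 under BMP4, and 37.6 and 38.7 under the 2 combined. All 4 libraries with TNFa were above the 4 without, as in 1.81% of all windows, but by only 0.21 ± 0.33 (p 0.552, 95% interval -0.55 to 0.97). The window at +13891 bp in intron 4 measured 42.7 and 109.9 CPM untreated, 39.3 and 166.8 under TNFa, 29.3 and 111.4 under BMP4, and 52.9 and 83.0 under the 2 combined. Replicate 2 was again the higher library in every group, and the groups overlapped. At +15161 bp in intron 5, levels ran from 11.1 CPM (untreated replicate 1) to 26.1 CPM (BMP4 replicate 2).

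A window in intron 1 at +1770 bp was called in every list but that of BMP4. It held 21.3 and 25.7 CPM in untreated cells, 20.5 and 34.8 with TNFa, and 29.2 and 26.2 with both. Both untreated libraries were below both libraries given the 2 factors, and the TNFa libraries spanned them all. Among the windows tested, which do not include this window, the former separation held in 15.6%. Past the end of the gene, the lists placed a window at +26832 bp (untreated 17.1 and 13.9 CPM, BMP4 32.7 and 19.1) or at +26734 bp (TNFa 10.3 and 19.2, both 18.1 and 18.2). These overlap only in part and were joined only at 1 bp. A neighbour at +27339 bp was in the BMP4 list alone, at 27.1 and 15.9 CPM.

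**Figure D3:**
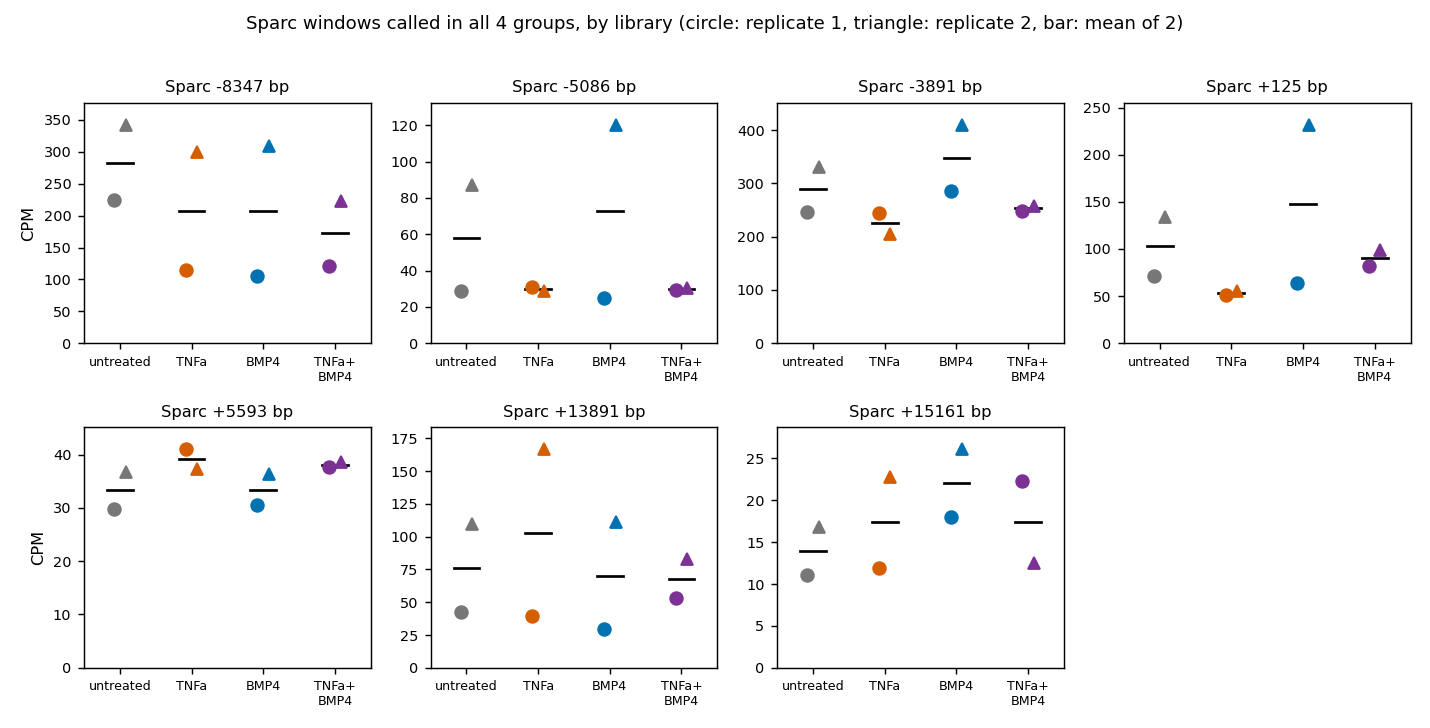
CPM in each library (circles replicate 1, triangles replicate 2, bars the mean of 2) of the 7 Sparc windows called in all 4 groups, each panel with its own axis from 0. Replicate 2 of untreated and of BMP4 cells are the 2 highest libraries at -5086 and -3891 bp, and +5593 bp stays between 29.9 and 41.0 CPM in all 8.

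Postn had no window within the gene (chr3:54359267-54391041) in any list. Its nearest called window began 53014 to 53035 bp past the gene's end, and all 13 of its rows were intergenic. Their assignment is that of the deposited nearest-gene column, and RefSeq places another gene model, Gm5641 (chr3:54481415-54482925), closer to the last of them. The last window, at +119336 bp (chr3:54480381-54480505), had identical coordinates in all 4 lists, the only window of these genes that did. It measured 13.7 and 20.5 CPM in untreated cells, 20.5 and 19.2 under TNFa, 30.5 and 37.6 under BMP4, and 33.4 and 30.7 under the 2 combined.

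All 4 libraries with BMP4 were therefore above all 4 without it, with no overlap. Such a separation upward held in 0.754% of all windows. BMP4 over both TNFa states differed by 0.79 ± 0.34 (1.72-fold, unadjusted p 0.0457, adjusted p 1.00 by limma). Against untreated cells, BMP4 differed by 0.93 ± 0.48 and both factors by 0.86 ± 0.48, and both against TNFa by 0.64 ± 0.48. These 3 share libraries. The interaction was -0.29 ± 0.67 (95% interval -1.83 to 1.24). The tags behind these values were 12 to 59 per library, and the background libraries had 6 and 8.

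The window at +83024 bp (chr3:54444055-54444200) followed the libraries that stand apart. It measured 6.8 and 46.2 CPM untreated, 10.3 and 15.6 under TNFa, 16.9 and 71.9 under BMP4, and 12.5 and 5.7 under the 2 combined. Replicate 2 of untreated and of BMP4 cells stood above the rest, which lay between 5.7 and 16.9 CPM. Both factors against BMP4 alone differed by -1.82 ± 0.92 (p 0.0806), with both libraries below both of BMP4, as in 12.9% of all windows. That difference was -0.83 without BMP4 replicate 2 and -2.80 without BMP4 replicate 1. Averaged over BMP4 states, the TNFa difference was -1.16 ± 0.65 (p 0.111) with all libraries and at its smallest -0.05 under the alternatives.

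The 3 further Postn windows were called only where BMP4 was given. At +100815 bp the level was 40.6 and 7.0 CPM with BMP4 and 40.4 and 11.4 with both. At +118852 bp, next to the last window, it was 59.8 and 10.2 CPM with BMP4 and 34.8 and 4.5 with both. In each of these windows replicate 1 was the high library and replicate 2 the low one, the reverse of +83024 bp. At +105242 bp, in the BMP4 list alone, it was 2.3 and 10.8 CPM, from 2 and 17 tags. The lists of the other groups hold no value at these places, so their levels there are not known. Between the 2 groups with BMP4, the difference was 0.30 ± 0.92 at +100815 bp and -0.81 ± 1.03 at +118852 bp.

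Omd lies on chr13:49582462-49592612, inside the longer gene Cenpp and in a row of related leucine-rich proteoglycan genes with Ecm2, Aspn and Ogn. No window was assigned to Ecm2, Aspn or Cenpp in any list, and Ogn had 1, in untreated cells. The windows assigned to Omd themselves lie within the span of Cenpp. The 4 Omd windows were low, with 2 to 34 tags per library. At +2039 bp in intron 1 the level was 29.0 and 2.9 CPM untreated, 23.9 and 20.4 under TNFa, 31.6 and 3.2 under BMP4, and 39.0 and 22.7 under the 2 combined. Replicate 1 lay between 23.9 and 39.0 CPM in all groups, whereas replicate 2 was at 2.9 and 3.2 CPM without TNFa and at 20.4 and 22.7 CPM with it.

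The TNFa difference at this window, 1.12 ± 0.73 over both BMP4 states, had an unadjusted p of 0.164 and became -0.21 without untreated replicate 2 and BMP4 replicate 2. Both factors against untreated cells gave 1.36 ± 1.04 (p 0.223), which was 0.037 without untreated replicate 2 and 2.68 without untreated replicate 1. At +1620 bp, also in intron 1, levels were 6.0 and 10.3 CPM untreated, 23.9 and 2.4 under TNFa, 22.6 and 10.2 under BMP4, and 26.4 and 5.7 under the 2 combined. The difference for BMP4 was 0.64 ± 0.66, and the groups overlapped. Upstream, the window at -784 bp measured 14.5 and 8.1 CPM untreated, 11.96 and 8.4 under TNFa, 24.8 and 1.9 under BMP4, and 16.7 and 6.8 under the 2 combined, with overlap throughout. A window at -1212 bp was called in the lists with BMP4 only, at 24.8 and 3.2 CPM with BMP4 and 20.9 and 8.0 with both.

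Among the membrane genes, Panx3 showed the largest difference of the 13 windows. Its promoter window (chr9:37669302-37669468 over the 4 lists, named -184 bp after its place in the untreated list) lies 80 to 122 bp upstream of the gene. It measured 58.9 and 104.1 CPM in untreated cells, 17.1 and 25.2 under TNFa, 53.0 and 116.5 under BMP4, and 20.9 and 17.1 under the 2 combined. The highest library with TNFa was below the lowest without it. The recovered tags were 69 and 142 untreated, 10 and 21 under TNFa, 47 and 183 under BMP4, and 15 and 15 under the 2 combined, against 4 to 7 in the background libraries.

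TNFa over both BMP4 states differed by -1.89 ± 0.42 (3.69-fold lower, 95% interval -2.83 to -0.94). Its unadjusted p of 0.00164 ranked 18 of 14451, and its adjusted p was 0.857. All 4 libraries with TNFa below all 4 without was found in 2.66% of windows. TNFa alone against untreated differed by -1.82 ± 0.59 (p 0.0138), both factors against BMP4 by -1.95 ± 0.59 (p 0.0097), and both against untreated by -1.94 ± 0.59 (p 0.00988). BMP4 alone differed from untreated by 0.01 ± 0.59 (95% interval -1.34 to 1.35), and the interaction was -0.13 ± 0.83. Leaving out untreated replicate 2 and BMP4 replicate 2, or any single library, kept the TNFa difference below 0, and over all alternatives it ran from -2.15 to -1.39. Those 2 replicates were the 2 highest libraries at this window. Without them, TNFa alone against untreated was -1.40 and both factors against BMP4 was -1.38. The TNFa and BMP4 lists held this window at identical coordinates (chr9:37669309-37669433), and there the levels were the 17.1 and 25.2 against 53.0 and 116.5 CPM given above.

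The authors' deposited table showed the same order. Its log2 fold over background was 5.38 in untreated cells and 5.08 with BMP4, and 2.77 with TNFa and 2.48 with both. Within each list the window ranked in the top 17.5% by tags in untreated cells and 17.3% with BMP4, but 73.3% with TNFa and 77.4% with both.

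The upstream Panx3 window lay at -622 bp (chr9:37669782-37669906), with identical coordinates in the 2 lists that held it, TNFa and both. Its level was 49.5 and 20.4 CPM with TNFa and 79.3 and 37.5 with both. The libraries of the 2 groups overlapped, and the difference of 0.72 ± 0.63 had an unadjusted p of 0.281. In these groups the window at -622 bp was higher than that at -184 bp in 3 of 4 libraries, TNFa replicate 2 being the exception. The untreated and BMP4 lists have no row there, so its level in those 4 libraries is not known. Their libraries were deeper (26048595 to 30051723 tags) than those of the groups with TNFa (16486612 to 21757662).

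**Figure D4:**
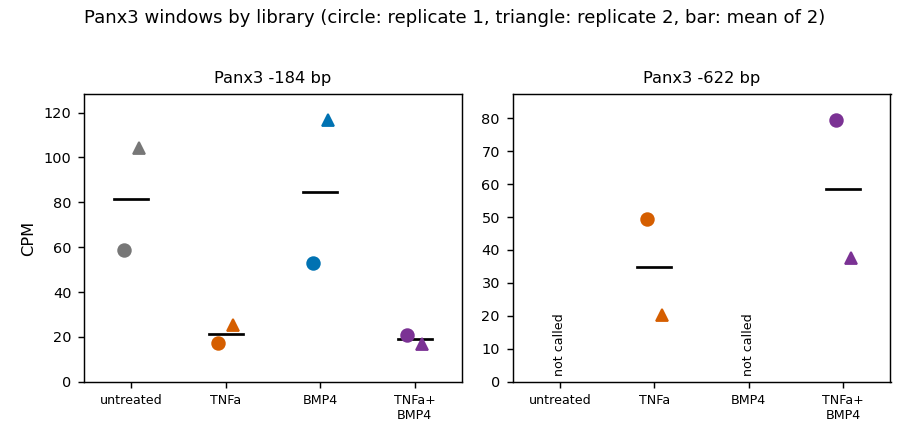
CPM in each library (circles replicate 1, triangles replicate 2, bars the mean of 2) at the Panx3 windows at -184 bp and -622 bp. At -184 bp the 4 libraries with TNFa lie between 17.1 and 25.2 CPM and the 4 without between 53.0 and 116.5, and -622 bp was not called in untreated or BMP4 cells.

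Cdh11 (chr8:102632095-102785493) had a window in intron 1 in all 4 lists and a promoter window in 2. The intronic window, at +44041 bp (chr8:102741008-102741180), measured 8.5 and 13.9 CPM untreated, 11.96 and 43.2 under TNFa, 7.9 and 18.5 under BMP4, and 18.1 and 13.6 under the 2 combined. TNFa replicate 2, with 36 tags, stood above the rest, which reached at most 18.5 CPM. The TNFa difference over both BMP4 states was 0.64 ± 0.48 (p 0.221). It was 0.21 without TNFa replicate 2, 0.38 without BMP4 replicate 1 and 1.07 without TNFa replicate 1. The promoter window at -102 bp held 12.8 and 27.8 CPM untreated and 21.4 and 29.9 with BMP4, a difference of 0.42 ± 0.69. It passed the authors' threshold narrowly, with a log2 fold over background of 2.17 and 2.29 in the authors' deposited table at adjusted p of 0.0368 and 0.0463. The TNFa and both lists, from shallower libraries, had no window there, and whether depth plays a part was not tested.

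Alpl (chr4:137741731-137796384) had no window within its 54654 bp in any list. The nearest called window, the same in all 4, began 57584 bp away and was assigned to Ece1. The lists report only windows above background, so this says that none was called at this depth, not that the promoter was closed.

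**Figure D5:**
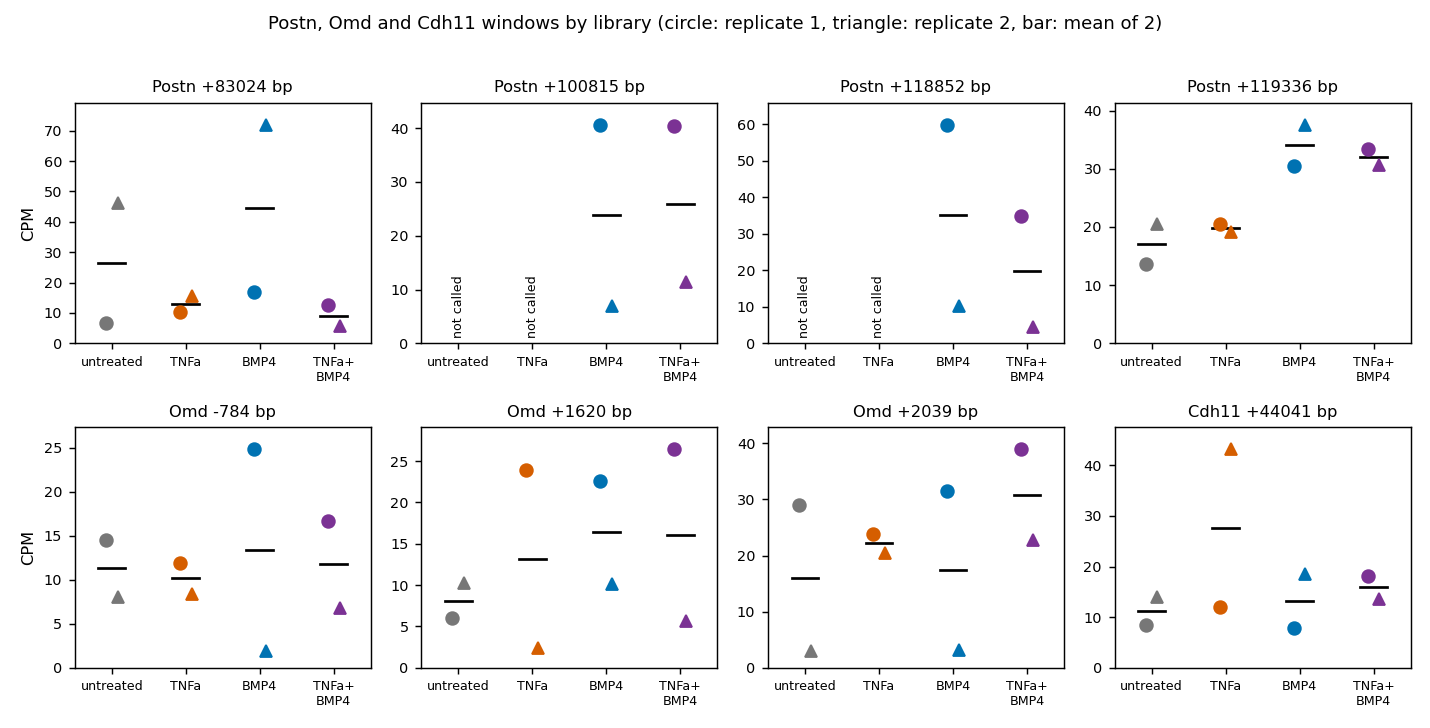
CPM in each library (circles replicate 1, triangles replicate 2, bars the mean of 2) at 4 Postn, 3 Omd and 1 Cdh11 windows, each panel with its own axis from 0. At Postn +119336 bp the 4 libraries with BMP4 lie between 30.5 and 37.6 CPM and the other 4 between 13.7 and 20.5.

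Windows whose levels over the 8 libraries were most like the highest tested window of 4 of the genes were named by Pearson's r, as a description. For Panx3 -184 they were assigned to Gm5069 (0.992, at -63030 bp) and Foxd3 (0.986, at -164214 bp), and 201 tested windows were above 0.9. For Postn +119336 they were those of Wdr38 (0.971) and Sh3pxd2a (0.956), with 7 above 0.9. Sparc -3891 was most like windows of Mir6366 (0.983) and Foxred1 (0.980), with 136 above 0.9. Omd +2039 was most like windows of Mcee (0.997) and Cbx5 (0.994), with 1119 above 0.9. All these values share the same 8 libraries and their differences in depth and signal. Each gene name is that of the nearest start only.

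Lists of related genes gave no passing window either. Of 17 genes related to Omd and Sparc (small leucine-rich proteoglycans and the SPARC family), 7 had 19 tested windows, with a median TNFa difference over both BMP4 states of -0.09. At an unadjusted p under 0.05, 3 were higher and 1 lower. Of all 14451 windows, 4.35% were at such a p in either direction, 49.5% were above 0, and the median was -0.01. These values over all windows also stand beside each list in the next paragraph. In the present list, the windows named by the smallest pairwise p were of Dcn (decorin) and Fstl1. Dcn at +34359 bp measured 109.5 and 135.6 CPM with BMP4 against 50.1 and 39.8 with both (-1.41 ± 0.50, p 0.0212), whereas Dcn at -22605 bp measured 23.05 and 31.5 untreated against 61.5 and 74.4 with TNFa (1.27 ± 0.52, p 0.0389). The 2 differences had opposite signs.

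Of 15 matricellular and fibrous matrix genes, 13 had 50 tested windows with a median TNFa difference of -0.14, 18 of them above 0 and none at an unadjusted p under 0.05. Of 14 mineralisation genes, 8 had 14 tested windows with a median of -0.14, 3 of them above 0 and 2 lower at an unadjusted p under 0.05. The window of Phospho1, a phosphatase of matrix vesicles, at -15941 bp measured 107.6 and 140.7 CPM untreated, 47.8 and 43.2 under TNFa, 123.0 and 218.4 under BMP4, and 57.1 and 35.3 under the 2 combined. Both against BMP4 differed there by -1.82 ± 0.55 (p 0.00985, adjusted p 0.989). All 4 libraries with TNFa were below the other 4 there, as in 2.66% of all windows. The window was picked for the smallest pairwise p of its list, so that separation follows in part from the choice. Of 17 adhesion and channel genes, 9 had 22 tested windows with a median TNFa difference of 0.04, 11 of them above 0 and none at an unadjusted p under 0.05.

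Markers of other cell types were counted to describe the line. Windows were called for 12 of 14 osteoblast markers (5 of the 14 are genes described here), with Alpl and Msx2 at 0, and for 9 of 10 housekeeping genes. They were called for 7 of 8 chondrocyte markers (19 to 32 windows per list), 3 of 6 adipocyte (4 to 6), 3 of 6 haematopoietic (1 to 4) and 3 of 8 endothelial and muscle markers (7 to 10). The haematopoietic markers at 0 in all lists were Cd68, Itgam and Ptprc. Those of endothelium and muscle were Acta1, Des, Kdr, Myod1 and Myog, and those of adipocytes were Fabp4, Lpl and Plin1. Matn1 of the chondrocyte markers and Sdha of the housekeeping genes were also at 0. The other markers of each set had windows, so these counts do not show the line to be free of any of these cell types. Chondrocyte windows numbered 30 and 32 in untreated and BMP4 cells and 20 and 19 in the groups with TNFa. The whole lists held 26230 and 24525 windows against 23288 and 23745, the latter from shallower libraries. Matricellular and fibrous matrix windows numbered 81 and 82 against 68 and 71, and adhesion and channel windows 50 and 49 against 37 and 40. Mineralisation windows numbered 22 and 24 against 22 and 23, and those related to Omd and Sparc 38 and 35 against 35 and 35. A window near a gene does not show that the gene is expressed, and the part of these differences in the results above was not tested.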

How the data were processed

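ATAC-seq of 4 groups of 2 libraries of MC3T3-E1 cells was analysed. Reads were handled with HOMER 4.11, deepTools 3.5.1, Picard 2.25.1, Bowtie2 2.5.1 and Trimmomatic 0.39 on mm10, per the submitters' processing notes. These sources do not say whether reads were shifted for the transposase. The authors, per the file headers, called windows of 125 bp with HOMER on the pooled replicates of a group against 2 background libraries, at an adjusted p of 0.05 and a log2 fold of at least 1. The deposited lists give a peak score, a log2 fold change and p-value over background, and a value per library. The headers call the last tag counts. As deposited they are log2 values from a regularised fit (rlog) that the authors made within each list, and they cannot be set beside those of another list. The peak score, set by the authors' caller, was not used.

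Tag counts were recovered by solving the rlog equation with 4 fitted constants per list. Within 0.1 of a whole number came out 99.94% of values in the untreated list, 99.99% with TNFa, 99.3% with BMP4 and 100% with both, and all values of 73 of the 75 rows. With a constant moved by 5%, between 14.0% and 98.6% did. The solution was checked on counts simulated with the same equation and constants, which cannot test the constants themselves. The test was checked on counts drawn independently for each library, without the likeness between libraries seen in the real data. Windows overlapping by at least 63 bp in every pair of lists were matched (14471), and those with a scaled count of at least 10 in at least 2 libraries were tested (14451). limma 3.58.1 (R 4.3.3) with a mean-variance trend was fitted to log2(scaled count + 2) over all 8 libraries, with scaling by the trimmed mean of M-values (TMM) and Benjamini-Hochberg adjustment over windows. Differences are on this log2 scale, which understates the change of low windows. CPM (counts-per-million) values divide recovered tags by the TMM-scaled tags in matched windows. The number of libraries (2 per group) and tags per window limit the precision.

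Every row of the 6 genes was accounted for. Related windows are the 2 with the highest correlation to a gene's highest tested window (not reported here for Cdh11), and up to 3 windows per list were named by smallest pairwise p. The genes and lists were chosen with earlier results of these data known. Alternatives covered scaling, pseudocount, filter, matching, weights, the replicate block and left-out libraries.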

Additional observations from a re-analysis of the deposited data

How the results depend on the processing

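For the 23 window differences at least as large as their SE, 442 values under alternative settings were computed. Of the 23, 17 kept their direction in every alternative run. The other 6 changed sign in 9 values. Without untreated replicate 2, both factors against untreated at Postn +83024 was 0.26. Without BMP4 replicate 2, both against BMP4 was -0.077 at Omd +2039 and 0.25 at Sparc -5086. With deposited rlog values minus the background rlog, both against BMP4 at Sparc -3891 was 0.023. Without both untreated replicate 2 and BMP4 replicate 2, a setting chosen after seeing the data, the values were 0.26 at Postn +83024, -0.074 at Omd +2039 and 0.25 at Sparc -5086. Under that setting the TNFa difference over both BMP4 states was -0.21 at Omd +2039 and 0.15 at Sparc -5086. The cause was not tested. Leaving out 1 library at a time, the lowest and highest values were -2.18 and 0.26 for both against untreated at Postn +83024, and -0.077 and 2.64 for both against BMP4 at Omd +2039. They were -1.93 and 0.25 for both against BMP4 at Sparc -5086. For TNFa over both BMP4 states they ran up to 1.81 at Omd +2039 and down to -1.32 at Sparc -5086.

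With replicate number as a replicate block, TNFa over both BMP4 states gave 124 passing windows in place of 0 (2729 at an unadjusted p under 0.05). Panx3 -184 was then among them at -1.89 ± 0.34 (adjusted p 0.0265 by limma), and its adjusted p ran from that to 1.00 over all alternatives. The labels do not pair libraries by number. Deviations of same-numbered libraries from their group means correlated at 0.104 to 0.763 with 2 numbers per group. With identical coordinates required, the rows made 55 regions, 1 of them in all 4 lists, and the fit held no window of these genes but Postn +119336. Matching only in the lists of the groups compared was not run for differences averaged over the other factor or for the interaction, which need all 4 lists. Low tags limit the precision at Omd, with 2 to 34 per library.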
